A study of Physcomitrium patens with 20 samples.

Results

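The combined loss of MET and DNMT3b in moss was set against the sum of the single losses, feature by feature, to see where the double mutant lies above or below that sum. For each gene and each transposable element (TE) the interaction was the log2 level in met/dnmt3b, minus that in met, minus that in dnmt3b, plus that in wild type (wt). It is 0 where the fold change of the double mutant equals the product of the fold changes of the single mutants. The comparison draws on 11 of the 20 libraries of the series, 3 each of wt, dnmt3b and met/dnmt3b and 2 of met, and was made for 20149 genes and 6602 TEs that passed a filter on low counts, of 31967 gene rows and 241351 TE rows in the deposited table.

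DNA methylation keeps TEs silent in plants, and it is placed on cytosines in different sequence contexts by different enzymes. MET copies CG methylation onto the new strand after replication. DNMT3b is the main enzyme of this moss for CHH methylation in heterochromatin, the compact chromatin in which most TEs lie. A feature silenced through either mark alone need not respond to the loss of only one of them, whereas a feature that needs both marks can respond fully to each loss.

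All libraries were made from polyadenylated RNA. The tissue was protonema, the branching filaments that grow from a spore, of Physcomitrium patens (cultivar Grandsen per the labels), grown for 7 days on BCDAT medium. The genotypes were unmodified wt, the single mutants met and dnmt3b, and the double mutant met/dnmt3b, all without further treatment. The labels used here do not say how many independent lines stand behind each mutant or whether replicates were separate cultures, and the p-values therefore describe the spread among the libraries at hand, part or all of which may be technical. The labels also place both met and all met/dnmt3b libraries in batch 1, all dnmt3b libraries in batch 2, and wt in both (replicates 1 and 2 in batch 1, replicate 3 in batch 2). No single batch therefore holds all 4 genotypes, and the interaction cannot be given from 1 batch. Within a batch, met/dnmt3b can be set against met (batch 1), and dnmt3b against wt replicate 3 alone (batch 2). The fit used all wt libraries. Its batch difference was estimated from the genotypes with libraries in both batches, which are wt, cmt and drm12. The gene identifiers are not paired with gene names in the table or the reference used here. The transcripts of MET and DNMT3b and the markers of protonema were therefore not analysed here, and features are named by identifier only.

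The 11 libraries held between 14236575 and 19745964 counts. Wt replicate 3 stands apart: the 504 genes numbered to chromosome 19 whose mean reached 2 CPM (counts scaled to a common library size) had a median log2 level there 0.90 above their median over the 11 libraries, against -0.07 to 0.00 in the other 10. In bulk RNA, fewer cells of a type and less RNA per cell cannot be told apart.

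Among genes, departures from the sum went in both directions. In most of them the double mutant did not pass the test against wt, as was so for most genes tested. By edgeR's quasi-likelihood test with Benjamini-Hochberg adjustment over genes and TEs together, 453 genes had a positive interaction (2.25% of those tested) and 335 a negative one (1.66%), with an adjusted p under 0.05, together 3.91%. Over all genes tested the median interaction was -0.10 on the log2 scale and 45% of values were positive. The called genes had large values. Positive interactions ran from 1.03 to 12.33 with a median of 3.21, and negative ones from -8.02 to -0.99 with a median of -1.97. With size factors by the RLE method the calls were 518 positive and 246 negative, 67.8% positive against 57.5% with the trimmed-mean factors used here.

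The count of gene calls depended on single libraries of each genotype. It rose to 1093 (681 positive, 412 negative) without wt replicate 3. It fell to 121 (83 positive, 38 negative) without met replicate 2, to 297 and 350 without met/dnmt3b replicates 1 and 3, to 418 and 438 without dnmt3b replicates 1 and 3, and to 509 without wt replicate 2. It was 1776 with no batch term, 743 of the 788 genes among them, and 417 when only the 11 libraries were fitted with batch, 313 of the 788 genes among them. In every one of the 11 fits that left out 1 library, 73 positive and 26 negative genes remained called.

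**Figure D1:**
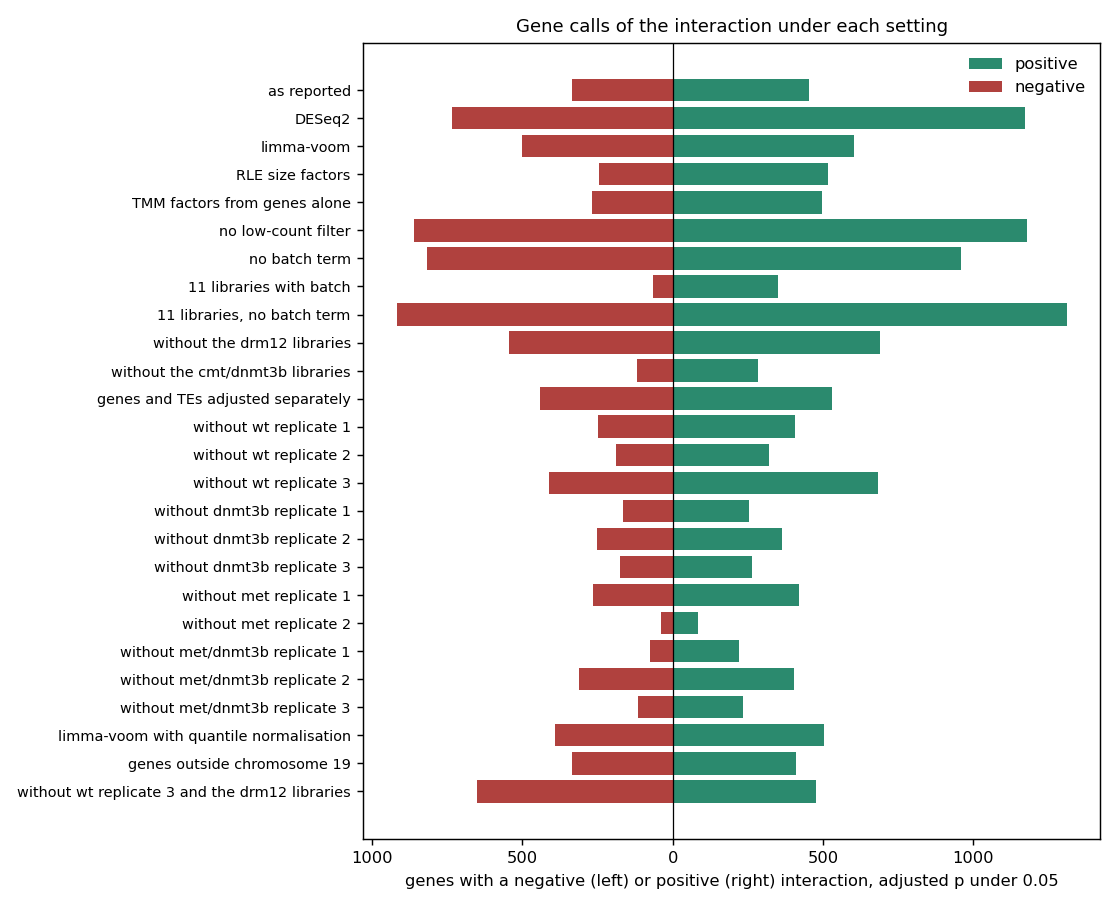
Number of genes with a positive (right, green) or negative (left, red) interaction at an adjusted p under 0.05, on the horizontal axis, under the settings listed, 1 bar per direction and setting. The limit of at least 1 log2 unit is not drawn, nor is the fit with replicate numbers as a block, which gave fewer genes than any setting drawn. The fit as reported gave 453 and 335 genes, and that without met replicate 2 gave 83 and 38.

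The gene with the smallest p of the positive interactions was Pp3c7_20170, and it was lower in each single mutant and higher in the double mutant. In CPM, its level was 82.5, 84.4 and 63.5 in the 3 wt libraries, 37.6 and 22.4 in met, 16.7, 18.9 and 12.7 in dnmt3b, and 192, 178 and 131 in met/dnmt3b. The 4 genotypes did not overlap: every library of the double mutant lay above every wt library, and every library of a single mutant lay below. Against wt the log2 fold change was -1.55 ± 0.33 (SE) in met (edgeR adjusted p = 0.0342), -1.84 ± 0.32 in dnmt3b (adjusted p = 0.00868) and 0.93 ± 0.29 in met/dnmt3b (adjusted p = 0.0297). The interaction was 4.32 ± 0.46 (adjusted p = 0.000533). Of the 453 genes with a positive interaction it was the only one called lower in both singles and higher in the double.

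Where the mean reached 0.5 CPM in each of the 4 genotypes, the largest positive interaction was that of Pp3c9_2920, a gene with low levels in both single mutants. Its level was 35.5, 31.8 and 11.7 CPM in wt, 1.08 and 2.69 in met, 0.120, 1.46 and 0.851 in dnmt3b, and 10.6, 7.83 and 20.4 in met/dnmt3b. The double mutant overlapped wt, through the low wt replicate 3, and lay above all 5 libraries of the single mutants. The interaction was 7.52 ± 1.62 (edgeR adjusted p = 0.0183), while none of the 3 fold changes against wt passed the threshold (adjusted p between 0.0564 in dnmt3b and 0.405 in met/dnmt3b). The call was lost without either met replicate.

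On the negative side the smallest p belonged to Pp3c3_11770, a gene raised in each single mutant and not in the double. It had 8.34, 9.05 and 11.8 CPM in wt, 20.9 and 28.8 in met, 28.2, 32.5 and 31.9 in dnmt3b, and 9.74, 10.04 and 10.9 in met/dnmt3b. The libraries of the double mutant lay within the range of wt, and those of both singles lay above it. The log2 fold change against wt was 1.48 ± 0.26 in met (edgeR adjusted p = 0.008) and 1.45 ± 0.26 in dnmt3b (adjusted p = 0.0139), against 0.20 ± 0.24 in met/dnmt3b (adjusted p = 0.604), and the interaction was -2.73 ± 0.36 (adjusted p = 0.00182). The largest negative interaction by the same rule of level was that of Pp3c15_22920, at -4.998 ± 0.88 (edgeR adjusted p = 0.00753). Its level was 2.35, 0.933 and 2.68 CPM in wt, 9.83 and 13.2 in met, 38.3, 10.8 and 12.2 in dnmt3b, and 3.42, 3.05 and 5.15 in met/dnmt3b. Here too both singles lay above every library of the double mutant, although dnmt3b replicate 1 was more than 3 times as high as the other 2.

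**Figure D2:**
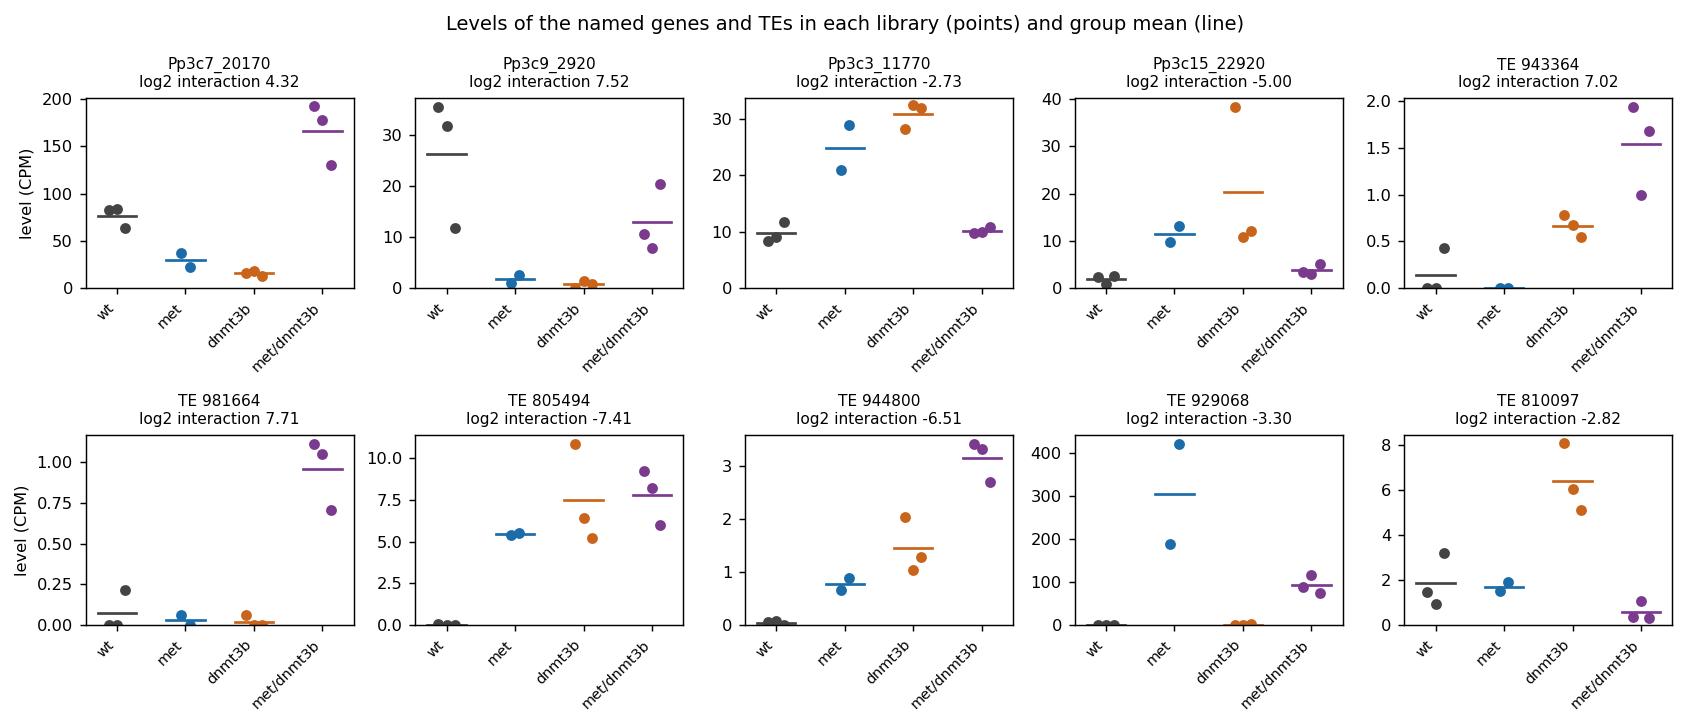
Level in CPM (vertical axis) of the 4 genes and 6 TEs described in the text, 1 panel each, with 1 point per library and a line at the mean of each genotype. Pp3c7_20170 is lowest in the 5 single-mutant libraries and highest in the 3 double-mutant libraries, and Pp3c3_11770 is high in the single mutants only.

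The 788 genes were sorted by their calls against wt, comparisons that share the wt libraries. Because wt and the double mutant enter the interaction with a plus and the single mutants with a minus, genes whose single mutants lie on one side are favoured by its construction, and the counts are a description of the called genes only. Of the 453 positive genes, 419 had estimates below wt in both singles, 326 were not called in the double mutant and 283 lay within 1 log2 unit of wt there. The last 2 traits were common among all genes tested. Their quartiles in the double mutant against wt were -0.38 and 0.34. Over all genes, 53.9% of estimates in met and 52.8% in dnmt3b lay above wt. Among all genes tested, the double mutant was called higher than wt in 5.44% and lower in 4.24%, met higher in 0.248% and lower in 0.293%, and dnmt3b higher in 0.471% and lower in 0.903%. A single mutant was called lower with no call in the double in 130 of the positive genes, in 105 of these through dnmt3b alone, in 11 through met alone and in 14 through both. A rise called in the double mutant only was found in 89, and 33 were called lower in the double and in a single. None of the 3 mutants was called in 196.

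Of the 335 negative genes, 327 had estimates above wt in both singles. In the double mutant 292 lay within 1 log2 unit of wt, which was again common among all genes tested. A single mutant was called higher with no call in the double in 45 genes, in 34 of these through dnmt3b alone. A fall called in the double mutant only was found in 48. Both singles and the double were called higher in 2 genes, a plateau in which the second loss added less than the first. No call against wt was made in 234.

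**Figure D3:**
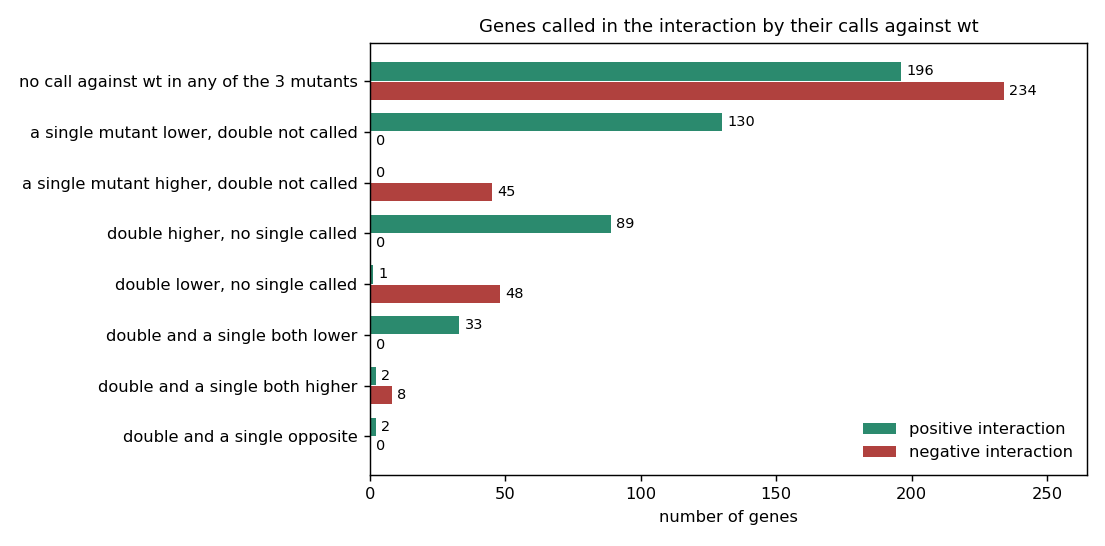
Number of genes with a positive (green) or negative (red) interaction (horizontal axis) by which of met, dnmt3b and met/dnmt3b passed the test against wt (vertical axis). The largest classes are those with no call against wt (196 and 234), followed by 130 positive genes in which a single mutant was lower and the double was not called.

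Median levels of the called genes show the libraries behind these calls. Relative to the median of each gene over the 11 libraries, the 453 positive genes had a median log2 level of 0.606, 1.101 and 0.00 in wt replicates 1, 2 and 3, -0.15 and -0.55 in met, -1.23, -0.87 and -1.08 in dnmt3b, and 0.75, 0.54 and 0.89 in met/dnmt3b. Wt replicate 3, the wt library of batch 2, thus lay between the other wt libraries and the dnmt3b libraries of that batch. In the genotypes outside the contrast, the same genes had medians of 0.46 to 0.84 in the 3 drm12 libraries, 0.17 to 0.36 in cmt/dnmt3b, and 0.41, 0.68 and -0.34 in cmt, where the low library, replicate 3, is also of batch 2. The 335 negative genes mirrored this, with -0.18, -0.58 and 0.00 in wt, 0.22 and 0.46 in met, 0.40 to 0.73 in dnmt3b and -0.66 to -0.43 in met/dnmt3b. Batch moved with the positive calls: 73.5% of those genes had a lower estimate in batch 2, against 47.8% of all genes, and 26.9% had a batch difference of at least 1 log2 unit, against 7.84%. Without the batch term, 433 of the 453 were called, among 958 positive genes. That fit cannot decide how far batch entered these calls. All dnmt3b libraries are of batch 2 and enter with a minus, so a lower level in batch 2 raises the interaction there.

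**Figure D4:**
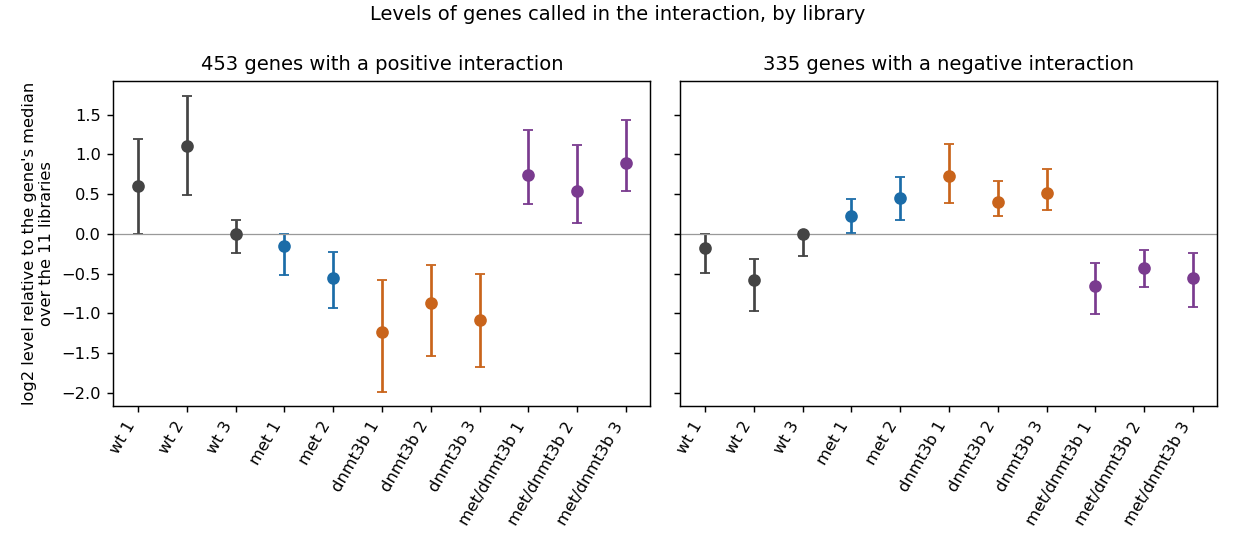
Median log2 level (points) and interquartile range over genes (bars) of the 453 genes with a positive and the 335 with a negative interaction in each of the 11 libraries, relative to the median of each gene over these libraries. The genes were chosen by the contrast between these groups, so only the spread within a group is informative; wt replicates 1 and 2 lie away from wt replicate 3, which is at 0.00 in both panels.

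The interaction can also be read as a difference between the effect of DNMT3b loss in met and that in wt, and these effects share no library. Of the 182 genes called lower in dnmt3b than in wt, 22 were called higher in met/dnmt3b than in met, where 2.79% of all genes were called higher, and 1 was called lower, where 3.28% were. Of the 95 genes called higher in dnmt3b than in wt, 25 were called higher in met/dnmt3b than in met and 6 lower. Without wt replicate 3 there were 52 such genes, with 11 higher and 8 lower in met, and with no batch term 669, with 44 and 22. Genes called lower in dnmt3b than in wt numbered 206 without wt replicate 3, of which 35 were higher and 1 lower in met/dnmt3b than in met. With no batch term they numbered 1042, of which 34 were higher and 2 lower. Over all genes, 601 of 20150 were called higher and 721 lower in met/dnmt3b than in met without wt replicate 3. With no batch term, 303 of 20149 were called higher and 300 lower. Genes of chromosome 19 made up 33 of the 182 and 4 of the 22.

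Calls for the loss of MET were fewer. All met/dnmt3b libraries are of batch 1 and all dnmt3b libraries of batch 2, so calls between them rest on the batch term. The same term enters met against wt through wt replicate 3. These counts were not repeated in other fits. Of 59 genes called lower in met than in wt, 10 were called higher in met/dnmt3b than in dnmt3b, where 2.33% of all genes were, and 2 lower (1.35% of all genes). Of 50 genes called higher in met, 13 were called higher in met/dnmt3b than in dnmt3b and 1 lower. Over the 453 positive genes, which were chosen for this difference, DNMT3b loss had a median log2 effect of -1.76 in wt and 1.32 in met, and MET loss one of -1.33 in wt and 1.81 in dnmt3b. Over the 335 negative genes these medians were 0.87 and -1.04 for DNMT3b loss and 0.74 and -1.16 for MET loss.

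Calls were counted by the level in wt, which itself enters the interaction with a plus, so that the classes are not independent of it and the counts are a description. Of 4611 genes with a wt mean above 50 CPM, 192 (4.16%) had a positive and 36 (0.781%) a negative interaction, and 60.6% of all values in this class were positive. Of 10261 genes between 5 and 50 CPM, 166 (1.62%) were positive and 215 (2.1%) negative, and 37.5% of all values were positive. Between 0.5 and 5 CPM, 1.94% of 3402 genes were positive and 1.91% negative. Of 1720 genes with a mean above 0 and up to 0.5 CPM, 29 (1.69%) were positive and 19 (1.1%) negative, and of 155 with 0 counts in wt none was called. The share of counts in abundant genes also differed between libraries. The 1000 most abundant genes held 48.6, 52.1 and 46.8% of gene counts in wt, 46.1 and 46.2% in met, 49.5, 48.1 and 48.0% in dnmt3b, and 52.2, 46.9 and 50.3% in met/dnmt3b, so the groups overlapped, with wt replicate 2 and met/dnmt3b replicate 1 highest. The interaction of this share was 4.26 ± 2.25 percentage points (SE), with 46 of the 54 ways to take 1 library per genotype above 0. Limma-voom after quantile normalisation, chosen after seeing the data, gave 503 positive and 390 negative genes, 652 of the 788 among them.

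Called genes were not spread evenly along the genome, as far as the chromosome and order can be read from the identifiers, a convention that could not be compared with an annotation here. Chromosome 19 held 44 positive calls, 7.28% of its 604 tested genes, against 0.654 to 3.13% on the other 26 chromosomes, and 1 negative call. Its median interaction was 0.50, against -0.22 to -0.03 on the others. Chromosome 19 is the one raised in wt replicate 3, and without that library it held 28 positive calls of 600 genes (4.67%), with a median interaction of -0.08, where 681 of all 20150 genes were called positive. Outside chromosome 19, 59 of 408 positive genes (14.5%) had a neighbour in identifier order that was also positive, against 3.87% of the genes not called positive, and for negative genes the shares were 8.41% and 3.28%. Neighbours that overlap can share reads, and the strand setting of the counting is not given in the sources used here.

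Single TEs gave few calls, and those with a positive interaction were called higher than wt in the double mutant and not called in met or dnmt3b. Of 6602 TEs, 21 had a positive interaction (0.318%) and 11 a negative one (0.167%) by the same edgeR test, together 0.485%, and 415 had an unadjusted p under 0.05. In 4004 of the 6602, wt had 0 counts, and none of these was called. With wt at 0 counts a positive log2 interaction cannot be called, so the share of positive calls says nothing about these TEs. Over all TEs tested, 52.9% were called higher than wt in met/dnmt3b and 0.136% lower, 1.59% higher in met and 0.485% higher in dnmt3b, and 0.0151% lower in each single mutant. These shares depend on the batch term, by which the median TE was 2.38 log2 units higher in batch 2. That batch holds all dnmt3b libraries and none of met or met/dnmt3b. They also describe a set of TEs of which only 2004 passed the filter without the cmt/dnmt3b libraries. Of the 21 positive TEs, 19 were called higher than in each single mutant. Against met, 15.8% of all TEs were called higher in the double mutant and 0.151% lower, and against dnmt3b 23.7% were called higher. All 11 negative TEs had estimates above wt in both single mutants, and in 5 of them the double and at least 1 single were called higher. The precision for a TE was low, with a median SE of 2.44 log2 units against 0.47 for genes, so most TEs could have departed from the sum by several fold without a call. TE copies that are nearly identical in sequence can share reads, and how the counting treated them is unknown, which makes values of single TEs uncertain.

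TE 943364 had the smallest p of the positive TEs. It had 0, 0 and 0.434 CPM in wt, 0 in both met libraries, 0.781, 0.676 and 0.547 in dnmt3b, and 1.93, 0.999 and 1.67 in met/dnmt3b. Every double-mutant library lay above every other library of the 4 genotypes, and the only wt library with counts was that of batch 2. The interaction was 7.02 ± 1.30 (edgeR adjusted p = 0.0104), a fitted value that depends on the prior count because met was at 0, with an estimated batch difference of 4.61 log2 units. TE 981664 had 0, 0 and 0.217 CPM in wt, 0.0599 and 0 in met, 0.0601, 0 and 0 in dnmt3b, and 1.12, 1.05 and 0.708 in met/dnmt3b, so it too was highest in the double mutant (interaction 7.71 ± 1.46, adjusted p = 0.0108). Neither call held without wt replicate 3, but wt was then at 0 counts for both. A positive interaction cannot be called there, so that fit cannot decide. Its estimates were 5.44 for TE 943364 and 6.33 for TE 981664, values that depend on the prior count. With no batch term neither call held (edgeR adjusted p = 0.201 for TE 943364 and 0.0983 for TE 981664). TE 943364 also lost its call without met replicate 2. In cmt/dnmt3b, which is outside the contrast, these TEs reached means of 12.8 and 14.4 CPM.

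The negative TE with the smallest p, 805494, was high in all 3 mutants. It had 0.0673, 0 and 0 CPM in wt, 5.40 and 5.53 in met, 10.9, 6.39 and 5.23 in dnmt3b, and 9.22, 8.20 and 5.99 in met/dnmt3b. The double mutant lay within the range of dnmt3b and above met. Against wt the log2 fold change was 7.498 ± 0.81 in met, 7.92 ± 0.89 in dnmt3b and 8.01 ± 0.78 in met/dnmt3b, and the interaction was -7.41 ± 1.03 (edgeR adjusted p = 0.00199). This call held in each of 26 alternatives.

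TE 929068 was high in met and lower in met/dnmt3b. Its level was 0.605, 0.790 and 0.507 CPM in wt, 188 and 421 in met, 0.601, 1.14 and 1.82 in dnmt3b, and 87.4, 116 and 74.3 in met/dnmt3b. The double mutant lay below both met libraries and above all dnmt3b libraries (interaction -3.30 ± 0.88, edgeR adjusted p = 0.0478), and 20 of 26 alternatives ended the call. Its mean was 277.5 CPM in cmt and 375.4 in cmt/dnmt3b. TE 810097 had its lowest mean in the double mutant, which overlapped wt and lay below both single mutants, with 1.48, 0.933 and 3.18 CPM in wt, 1.499 and 1.90 in met, 8.05, 6.03 and 5.11 in dnmt3b and 0.372, 1.05 and 0.322 in met/dnmt3b (interaction -2.82 ± 0.66, adjusted p = 0.0276). Its call was lost without dnmt3b replicate 1, met replicate 2 or met/dnmt3b replicate 1 or 3. TE 944800 had 0.0673, 0.0718 and 0 CPM in wt, 0.659 and 0.896 in met, 2.04, 1.04 and 1.28 in dnmt3b and 3.42, 3.31 and 2.71 in met/dnmt3b, so the double mutant lay above every single-mutant library. Its interaction was nevertheless negative, at -6.51 ± 1.27 (adjusted p = 0.0134, lost without met replicate 2), on a scale of folds from a wt level near 0, and its fitted level was 4.30 log2 units lower in batch 2. On the linear scale, with no adjustment for batch, the mean of the double mutant exceeded the sum of the changes by 0.961 CPM. From the fitted levels at batch 1, the linear value was -26.18 CPM. The sign on the linear scale thus depended on the batch term.

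The estimated batch difference was larger for TEs than for genes. The median TE was estimated 2.38 log2 units higher in batch 2 than in batch 1, against 0.02 for genes, and all 21 positive TEs had a positive batch difference, as had 81.1% of all TEs. The median interaction over TEs was 0.99 with the batch term and 0.01 without it. Most of the 6602 TEs passed the filter on low counts through cmt/dnmt3b, since 2004 passed without those libraries and 1489 in the 11 libraries alone, where the median was 0.29 with the batch term and -0.34 without it. Over the 20 libraries without the term, 7 TEs were positive and 14 negative, with 8 of the 32 called TEs among them. Adjusting TEs apart from genes left 1 TE, and limma-voom gave 548 positive and 15 negative TEs. The 32 calls fell to 4 without met replicate 2, to 11 without met/dnmt3b replicate 1 or 3, to 17 without dnmt3b replicate 1 or 3, to 18 without wt replicate 2 and to 20 without dnmt3b replicate 2. Without wt replicate 3, 26 TEs were called, of which 2 were among the 21 positive and 5 among the 11 negative TEs. A TE with wt counts in replicate 3 alone could not be called positive in that fit. In every fit that left out 1 library, 2 positive TEs and 1 negative TE were called. Of the 3495 TEs called higher in met/dnmt3b than in wt, 21 had a positive and 5 a negative interaction, and 70.6% had a positive estimate, against 67.6% of all TEs tested. These TEs were selected on a difference that enters the interaction.

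Summed over all TE rows and with no adjustment for batch, the transcripts of the double mutant came close to the linear sum of the single mutants and below the product of their folds, whereas with the batch term they came close to the product. TEs took 0.0698, 0.0561 and 0.109% of counts in wt, 0.209 and 0.191% in met, 0.279, 0.208 and 0.219% in dnmt3b, and 0.364, 0.450 and 0.308% in met/dnmt3b. The double mutant lay above the other 8 libraries. Its mean of 0.374% compares with 0.357% for the sum of the changes and 0.601% for the product of the folds. On the linear scale the difference from the sum was 0.0169 ± 0.0502 percentage points (SE over libraries), with 33 of the 54 ways to take 1 library per genotype above 0. On the log2 scale the interaction was -0.74 ± 0.36, with 4 of 54 above 0. With batch as a term over the 20 libraries, where the share was 1.12 log2 units higher in batch 2, the log2 interaction was 0.0028 ± 0.313, and without drm12 replicate 3, left out after seeing the data, it was -0.18 ± 0.25.

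More TEs were detected in the double mutant than in the single mutants. At equal depth, 1249, 1595 and 3216 TEs had at least 1 count in wt, 4620 and 2027 in met, 5995, 5055 and 5062 in dnmt3b, and 9729, 9020 and 7987 in met/dnmt3b. The difference from the linear sum was 2238 ± 1550 TEs (SE), with 46 of 54 combinations above 0, and the met libraries differed by more than a factor of 2. This value takes no account of batch, and the batch 2 library had more detected TEs than both batch 1 libraries in wt (3216), in drm12 (4659 against 1785 and 1516) and in cmt (7869 against 3738 and 4655). Over the whole table, 17813 TEs and 25095 genes had a count in at least 1 of the 11 libraries. Of these TEs, 463 had counts in all 3 double-mutant libraries and in none of the 8 others, with a median of 6 counts over the 3 libraries. Among the 463, 102 had at least 10, and 425 had a count in cmt/dnmt3b. The share of all 17813 TEs with a count there was not taken. As a mean of 14500 TEs was detected in cmt/dnmt3b at equal depth, the 425 cannot be read as particular to these TEs. Counts in all libraries of both single mutants and none in the double were found for 5 TEs. Counts in all dnmt3b and all double-mutant libraries and in none of wt and met were found for 276 TEs, in all met and double-mutant libraries and in none of wt and dnmt3b for 99, and in all libraries of the 3 mutants and none of wt for 80. In dnmt3b alone, 13 TEs had counts in all 3 libraries and in none of the other 8. In met alone, which has fewer libraries, there were 18 such TEs. Among the 25095 genes, 39 had counts in the double mutant alone, 8 in both singles and not in the double, 4 in dnmt3b alone and 9 in met alone.

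**Figure D5:**
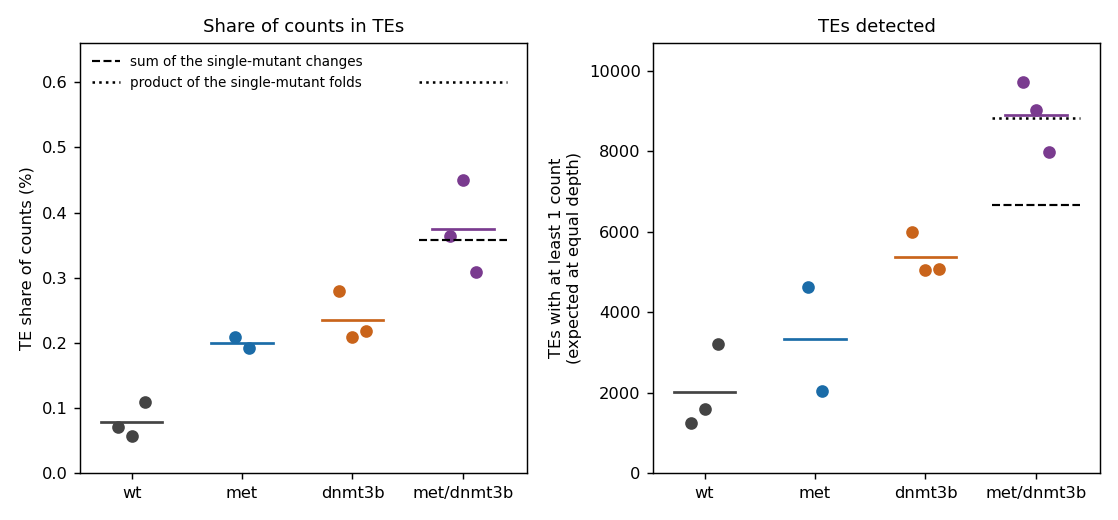
Share of counts in TEs in percent (left) and number of TEs with at least 1 count, scaled to the depth of the smallest library (right), per library (points) with the mean of each genotype (line). The dashed line marks the sum of the single-mutant changes and the dotted line the product of their folds: the double mutant's share of 0.374% lies near the former (0.357%), and its 8912 detected TEs near the latter (8836).

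A linear sum of levels was also taken, with no adjustment for batch. Its answer differed from that of the log2 interaction, which carries the batch term, for a minority of features. A feature was counted above the linear sum when the lowest double-mutant and the lowest wt level together exceeded the highest met and the highest dnmt3b level, and below it in the opposite case. By this rule 2596 genes lay above (12.9%) and 2750 below (13.6%), and 1115 TEs lay above (16.9%) and 215 below (3.26%). Of the called genes, 450 of 453 positive ones lay above and 321 of 335 negative ones below. Of the called TEs, 20 of 21 positive ones lay above, and 8 of 11 negative ones below. The exception among the negative TEs that lay above the linear sum was 1 TE. In sign alone, 1109 genes and 543 TEs had a mean level above the linear sum with a negative log2 interaction, and 723 genes and 794 TEs the reverse. Scale and batch adjustment both differ between these values, and their parts in the disagreement were not separated. Leaving out a library narrows the range of its group, which by itself favours no overlap. Without wt replicate 3 or met replicate 1, the genes with no overlap rose from 5346 to 8327 and 8354. Leaving out any other library gave 5665 to 7499. Why these 2 libraries moved the count most was not tested.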

How the data were processed

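Raw counts of the 20 libraries were deposited in a single table. STAR 2.7.0f, cutadapt 1.15 and Trim Galore 0.6.0 are named, per the submitters' processing notes, without their settings. For the counting step, the treatment of multiply mapped reads, the strand, the build and the annotation, nothing is stated in the labels. Rows with numeric identifiers were taken as TEs, from the name of the table.

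The counts of all 20 libraries were fitted with edgeR 4.0.16 (R 4.3.3), with genotype and batch as terms, TMM factors over genes and TEs, and the edgeR filter by group (minimum count 10, minimum total 15). The quasi-likelihood test of the contrast was adjusted over 26751 features, with a threshold of 0.05. An SE is the log2 estimate divided by the root of the F statistic, and fitted values use a prior count of 0.125. Levels are CPM with these factors. Relative levels are log2 of CPM plus 0.5, minus the gene's median over the 11 libraries and the library's median over genes. DESeq2 1.42.0, limma 3.58.1 and other choices served as alternatives. Scripts were tested on simulated data. Replicates of the 4 genotypes differed by more than sampling noise (chi-square per degree of freedom 6.87 to 115.5).

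Named features were those with the smallest p in each direction that kept their sign in every fit leaving out 1 library, and those with the largest interaction among features with a mean of at least 0.5 CPM in each genotype (no positive TE met this). One gene and up to 2 TEs were taken per rule and direction. Gene lists by function were not used, since no identifier matched a name. The comparison and the rules were chosen with earlier results of these data known.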

Additional observations from a re-analysis of the deposited data

Results flagged for a closer look

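For each named feature the effect of DNMT3b loss differed between the met and wt backgrounds by the test of the difference itself, with an adjusted p under 0.05 by edgeR's quasi-likelihood test. On the log2 scale the difference was 4.32 for Pp3c7_20170 and 7.52 for Pp3c9_2920, and -2.73 for Pp3c3_11770 and -4.998 for Pp3c15_22920. It was 7.02 for TE 943364 and 7.71 for TE 981664, and it was -7.41 for TE 805494, -6.51 for TE 944800, -3.30 for TE 929068 and -2.82 for TE 810097. These features were named for that difference.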

How the results depend on the processing

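Counts of called genes moved by more than 1.5 times, from 788, under 8 alternatives that left out no single library of the 4 genotypes: 1908 by DESeq2, 2036 with no low-count filter, 1776 with no batch term, 417 with the 11 libraries and batch, 2228 with the 11 libraries and no batch term, 1233 without the drm12 libraries, 405 without the cmt/dnmt3b libraries and 69 when replicate numbers were fitted as a block. Counts of called TEs, 32 as reported, were 95 by DESeq2, 563 by limma-voom, 214 by limma-voom with quantile normalisation (an alternative chosen after seeing the data), 104 with no filter, 21 with no batch term, 7 with the 11 libraries and batch, 9 without the cmt/dnmt3b libraries, 4 with the block and 1 with TEs adjusted apart. The cause was not tested. Leaving out 1 library gave 121 to 1093 genes, moved by over 1.5 times in 6 of 11 such fits, and 4 to 37 TEs, 5665 to 8354 genes and 1335 to 1793 TEs with no overlap on the linear scale, and a log2 interaction of the summed TE level of -1.01 to -0.53. That level gave 0.0169 percentage points on the linear scale and 0.0028 with batch as a term. Chromosome 19, with 3.0% of the genes tested, held 5.73% of gene calls, and 3.58% without wt replicate 3. The replicate number did not pair the libraries: deviations of same-numbered libraries correlated between -0.568 and 0.313 over 16796 genes, and 2 of 15 pairs exceeded 0.1. No named feature changed direction under its 26 alternatives, but part of this was fixed in advance. The 26 include the 11 fits that left out 1 library, and features named by smallest p had to keep their sign there. Adjusting genes and TEs apart and the limit on the log2 value reuse the reported estimate. The call of Pp3c9_2920 was lost in 3 of them, that of Pp3c15_22920 in 1, those of TEs 943364 and 981664 in 6 each and those of TEs 944800 and 810097 in 7 each. For TEs 943364 and 981664 these include the fits without wt replicate 3, which left wt at 0 counts and allowed no positive call. The median SE of the interaction was 2.44 log2 units for TEs and 0.47 for genes.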
